A study of Mus musculus with 4 samples.

Results

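Expression of chemoattractant receptors was described in 4 sorted bone marrow populations of the mouse, with 1 microarray for each. The group was defined as 8 genes, Ccr1, Ccr2, Cx3cr1, Cxcr2, Cxcr4, Fpr1, Fpr2 and C5ar1, chosen by name, out of 12393 genes named on the array. The annotation table named 11 probe sets for 7 of these genes. Fpr1 had no probe set named for it in the table used here and was not analysed.

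The mice were untreated C57BL/6 animals aged 8 weeks, backcrossed for at least 10 generations and housed free of specific pathogens. All of them carried a reporter allele, GFP:Gfi1 KI, in which green fluorescent protein (GFP) was placed in the locus of Gfi1, which encodes a repressor of transcription in blood cells, so no population came from a wild-type animal. The Gfi1-deficient monocytes were CD11b+ and Gr1-low cells from homozygous (KI/KI) animals, for which the labels name no GFP gate. The granulocytes were CD11b+, Gr1-high cells of heterozygous (KI/WT) mice. The GFP-high and GFP-low monocytes were the CD11b+, Gr1-low cells of heterozygous mice with high and low reporter signal. Monocyte and granulocyte are the names the labels use. How many animals gave each RNA is not given in the sources used here.

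Chemoattractant receptors are G protein-coupled receptors with which leukocytes sense gradients of chemokines, bacterial formyl peptides and complement fragments, mostly through Gi proteins. In bone marrow, Cxcr4 holds myeloid cells near stromal cells that make its ligand Cxcl12. Cxcr2 drives the exit of mature neutrophils, and Ccr2 that of inflammatory monocytes. Cx3cr1 binds fractalkine and is known from monocytes that patrol vessels, Ccr1 binds inflammatory chemokines such as Ccl3, and C5ar1 and the formyl peptide receptors guide phagocytes to sites of infection.

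The values are log2 expression values as deposited, and a log2 difference of 1 is a 2-fold difference. Values below 5.18, the 40th percentile of all values, were treated as not above the floor. Where a gene had several probe sets, the one with the highest mean over the arrays was used, and by it all 7 measured receptors were above the floor on all 4 arrays. With 1 array in each population no test was possible. The only error estimate is the SD between different probe sets for 1 gene, from 0.16 for Gfi1-deficient minus GFP-low monocytes to 0.38 for Gfi1-deficient monocytes minus granulocytes, computed over 2584 genes. It does not cover the spread between animals. Values from different probe sets are not comparable as levels, so each receptor is compared with itself across populations.

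The arrays had medians between 5.91 and 6.01. The Gfi1 probe set read 5.18 in Gfi1-deficient monocytes, 7.31 in granulocytes, 10.31 in GFP-high monocytes and 3.74 in GFP-low monocytes. The reading in Gfi1-deficient monocytes lay just below the floor, and it is not known here whether the probe set lies in the replaced part of the gene. Xist, a transcript of female cells, read 5.80 in Gfi1-deficient monocytes against 9.56 in granulocytes, 10.93 in GFP-high and 10.42 in GFP-low monocytes. The Y-linked Eif2s3y read 8.31 in Gfi1-deficient monocytes, against 3.40 in granulocytes, 3.67 in GFP-high and 4.39 in GFP-low monocytes, which all lie below the floor. All 8 measured monocyte markers were above the floor on every array. Their summed linear level, which counts values below the floor as the floor, was 45078 in Gfi1-deficient monocytes, 4894 in granulocytes, 2194 in GFP-high monocytes and 46101 in GFP-low monocytes. The 5 markers of granulocyte-monocyte progenitors and promyelocytes summed to 11811, 1664, 45029 and 2018 in the same order of populations, and the 8 measured neutrophil markers to 19074, 121839, 103587 and 48471. The array labelled GFP-high monocytes thus had the lowest sum of monocyte markers and the highest sum of promyelocyte markers. Its sum of neutrophil markers was the next highest after that of granulocytes. Between GFP-high monocytes and granulocytes, F13a1 was the monocyte marker that did not follow the sum, at 9.08 against 8.90. Between Gfi1-deficient and GFP-low monocytes other markers did not follow it, such as Cd14 at 10.82 against 10.13.

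Ccr2 and Cx3cr1, the receptors of the monocyte lineage, were high in Gfi1-deficient and GFP-low monocytes and low in granulocytes and GFP-high monocytes. Ccr2 read 12.33 in Gfi1-deficient monocytes, 8.06 in granulocytes, 6.75 in GFP-high monocytes and 12.32 in GFP-low monocytes by probe set 1421186_at. It was 47.5-fold higher in Gfi1-deficient than in GFP-high monocytes and 19.1-fold lower in granulocytes than in GFP-low monocytes. Gfi1-deficient and GFP-low monocytes differed by 0.01 in Ccr2 by this probe set, and by 0.17 and 0.16 with the others, at most about the SD of 0.16 between probe sets. In a sorted population, fewer cells that express a gene and less of its RNA in each cell cannot be told apart.

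The other probe sets of Ccr2 gave the same order of high and low populations. Probe set 1421187_at read 12.03 in Gfi1-deficient monocytes, 7.41 in granulocytes, 5.86 in GFP-high monocytes and 11.86 in GFP-low monocytes. Probe set 1421188_at read 9.15, 5.23, 4.62 and 8.99 on the same arrays, so that it was below the floor in GFP-high monocytes and barely above it in granulocytes. Granulocytes exceeded GFP-high monocytes in Ccr2 by log2 1.31 and 1.55 with the probe sets that were above the floor in both, 2.47-fold and 2.92-fold. Ccr2 was thus lowest in a Gr1-low population and not in the Gr1-high one. The sum of monocyte markers had the same order, at 2194 in GFP-high monocytes and 4894 in granulocytes. F13a1 went the other way, at 9.08 and 8.90. The part of monocytes in this Ccr2 difference was not tested.

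Cx3cr1 read 9.82 in Gfi1-deficient monocytes, 6.64 in granulocytes, 5.71 in GFP-high monocytes and 10.78 in GFP-low monocytes by probe set 1450020_at. It was 33.6-fold lower in GFP-high than in GFP-low monocytes, and 17.3-fold higher in Gfi1-deficient than in GFP-high monocytes. These folds were 15.7 and 8.06 with the floor at the 60th percentile. With the mean of both probe sets, the log2 difference of GFP-high minus GFP-low monocytes was -4.32, and Gfi1-deficient monocytes were 11.1-fold above GFP-high monocytes. Unlike Ccr2, its level in Gfi1-deficient monocytes was also below that of GFP-low monocytes, by 1.95-fold, just short of the 2-fold rule. The second probe set, 1450019_at, read 7.49 in Gfi1-deficient monocytes, 4.81 in granulocytes, 3.88 in GFP-high monocytes and 8.22 in GFP-low monocytes, and gave 1.66-fold for the same comparison. These log2 differences of -0.96 and -0.73 were 5.90 and 4.50 times the SD between probe sets. In that comparison Cx3cr1 ranked 112 from the lowest of 8010 measured genes.

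**Figure D1:**
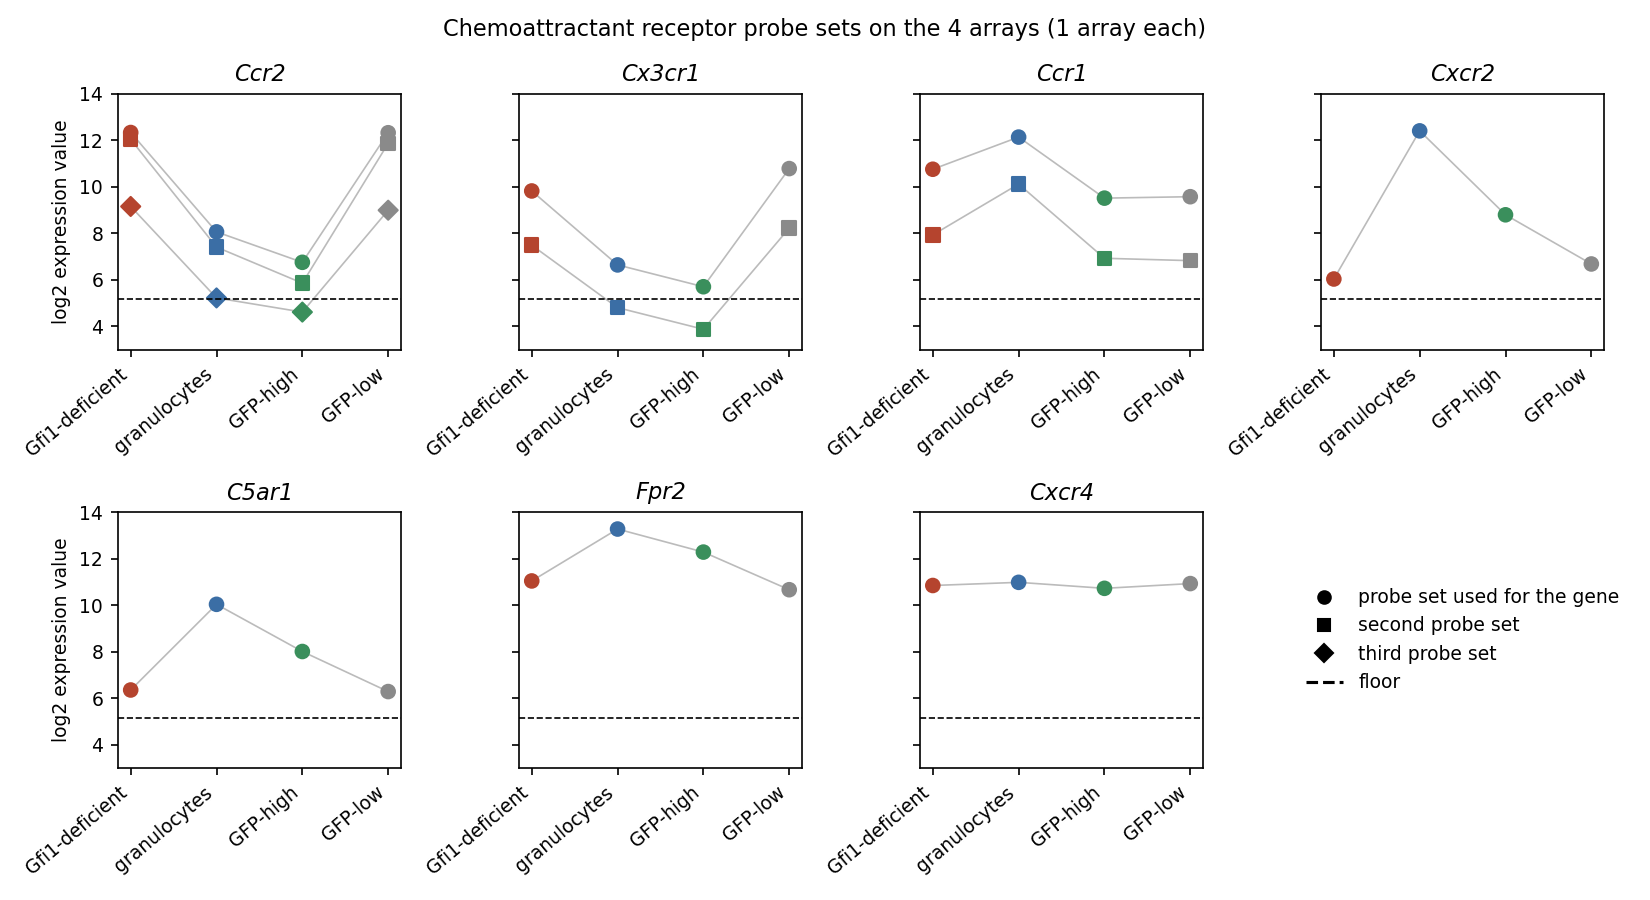
Log2 expression values (vertical axis) of the 11 probe sets of 7 chemoattractant receptors on the 4 arrays (horizontal axis, 1 array each), with a panel for each gene, different marker shapes for different probe sets of a gene, and the floor of 5.18 as a dashed line. Ccr2 and Cx3cr1 are high at the outer populations, Cxcr2, C5ar1, Fpr2 and Ccr1 peak in granulocytes, and Cxcr4 stays between 10.72 and 10.98; lines only join values of 1 probe set.

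Cxcr2, C5ar1 and Fpr2, the receptors of mature phagocytes, were highest in granulocytes and next highest in GFP-high monocytes. Cxcr2 read 6.04 in Gfi1-deficient monocytes, 12.40 in granulocytes, 8.79 in GFP-high monocytes and 6.68 in GFP-low monocytes by probe set 1421734_at. Granulocytes were 12.1-fold above GFP-high monocytes, which were themselves 4.32-fold above GFP-low monocytes. Gfi1-deficient monocytes had the lowest reading, 82.1-fold below granulocytes and 1.56-fold below GFP-low monocytes. This last log2 difference of -0.65 was 3.96 times the SD between probe sets and under the 2-fold rule, and Cxcr2 had 1 probe set. Of the 8 measured neutrophil markers, 6 also read lower in Gfi1-deficient than GFP-low monocytes, such as Camp at 7.37 against 12.41 and Mmp9 at 5.94 against 8.45. The other 2 read higher, Mmp8, at 11.71 in Gfi1-deficient monocytes, and Il1r2, at 6.69 against 6.31. The part of neutrophils in the readings of Cxcr2, C5ar1 and Fpr2, in GFP-high monocytes too, was not tested. A floor at the 60th percentile gave 48.2-fold below granulocytes, and a log2 difference from GFP-high monocytes of -1.99 in place of -2.76.

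C5ar1, the receptor for the complement fragment C5a, read 6.36 in Gfi1-deficient monocytes, 10.04 in granulocytes, 8.01 in GFP-high monocytes and 6.29 in GFP-low monocytes by probe set 1422190_at. Granulocytes exceeded GFP-high monocytes 4.07-fold, and GFP-high monocytes exceeded GFP-low monocytes 3.29-fold. Gfi1-deficient and GFP-low monocytes differed in C5ar1 by 0.07, less than the SD between probe sets. The monocyte populations that were high for Ccr2 were thus the low populations for C5ar1.

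Fpr2, a receptor for formyl peptides and for endogenous ligands such as annexin A1, read 11.04 in Gfi1-deficient monocytes, 13.27 in granulocytes, 12.28 in GFP-high monocytes and 10.66 in GFP-low monocytes by probe set 1422953_at. It was well above the floor in all populations. Its lowest reading stood at the 95.4th percentile of all probe sets on that array, a place that also depends on the probe set. Fpr2 was 6.08-fold higher in granulocytes and 3.06-fold higher in GFP-high monocytes, each against GFP-low monocytes. Gfi1-deficient monocytes exceeded GFP-low monocytes by 0.38 in log2 value, 2.31 times the SD between probe sets and under the 2-fold rule. The step of 0.99 between granulocytes and GFP-high monocytes lay just under the 2-fold rule, and centring each array on its median moved it to 1.04.

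Most eosinophil and macrophage markers also had their highest reading in GFP-high monocytes. The 5 eosinophil markers summed to 6113 there, with 4 above the floor, against 1894 in Gfi1-deficient monocytes (3 above), 395 in granulocytes (2 above) and 330.2 in GFP-low monocytes (1 above). Epx and Prg2 read 10.18 and 12.16 in GFP-high monocytes, and Il5ra was below the floor on all 4 arrays. The 6 macrophage markers summed to 2533 in GFP-high monocytes against 1217 in Gfi1-deficient monocytes, 813 in granulocytes and 1350 in GFP-low monocytes. Vcam1, at 10.66, carried most of that sum, while Adgre1 of the same list was lowest in GFP-high monocytes, at 7.55, against 9.88 in Gfi1-deficient monocytes, 8.15 in granulocytes and 9.98 in GFP-low monocytes. Dendritic cell markers summed to 932 in Gfi1-deficient monocytes, 1188 in granulocytes, 409 in GFP-high monocytes and 2734 in GFP-low monocytes. H2-Aa, an MHC class II gene at 11.20 in GFP-low and 6.90 in GFP-high monocytes, carried most of the highest sum. Flt3 of the same list read between 7.50 and 8.03 on all arrays, and Itgax was highest in granulocytes, at 6.71. Zbtb46 and Ccr9 were below the floor throughout. Of T cell markers, 3 of 5 were above the floor in granulocytes and in GFP-high monocytes, and 2 of 5 in Gfi1-deficient and GFP-low monocytes. Of B cell markers, 5 of 7 were above the floor in granulocytes and 3 of 7 on each other array. The part of these cells in the receptor readings was not tested.

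Ccr1, a receptor for Ccl3 and related chemokines, was the receptor that set Gfi1-deficient apart from GFP-low monocytes by the 2-fold rule. It read 10.75 in Gfi1-deficient monocytes, 12.13 in granulocytes, 9.51 in GFP-high monocytes and 9.57 in GFP-low monocytes by probe set 1419609_at. Probe set 1419610_at read 7.93, 10.11, 6.93 and 6.83 on the same arrays. Both probe sets put granulocytes highest and Gfi1-deficient monocytes next. Gfi1-deficient monocytes were 2.26-fold and 2.15-fold above GFP-low monocytes by these probe sets, log2 differences of 1.18 and 1.10 that were 7.24 and 6.78 times the SD between probe sets. Ccr1 ranked 37 from the highest of 8010 genes in this comparison. Markers of granulocyte-monocyte progenitors and promyelocytes summed to 11811 in Gfi1-deficient monocytes, against 2018 for the GFP-low array. Neutrophil markers went the other way, at 19074 against 48471, and monocyte markers were close, at 45078 against 46101. GFP-high monocytes had the highest promyelocyte sum, 45029, with Ccr1 at 9.51. The part of other cell types in the Ccr1 difference was not tested.

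GFP-high and GFP-low monocytes did not differ in Ccr1 beyond the SD between probe sets, at log2 differences of -0.06 and 0.10 with opposite signs for the probe sets. Granulocytes were 5.89-fold above GFP-low monocytes by 1 probe set and 9.75-fold by the other. Ccr1 thus did not follow the order of Cxcr2 and C5ar1, in which GFP-high monocytes came next after granulocytes.

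Cxcr4, the retention receptor, was at nearly the same level in all populations. It read 10.85 in Gfi1-deficient monocytes, 10.98 in granulocytes, 10.72 in GFP-high monocytes and 10.93 in GFP-low monocytes by its only probe set, 1448710_at. The largest difference, granulocytes minus GFP-high monocytes, was 0.26 (1.20-fold), below the SD of 0.32 between probe sets in that comparison. Each of the 6 differences of Cxcr4 was smaller than the SD between probe sets. The level of the RNA does not show the amount of receptor on the cell surface.

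The receptors differed widely in how far their readings ranged over the 4 populations. Of 8621 genes above the floor on at least 1 array, Cxcr2 had the range that ranked 7 from the largest, at log2 6.36, Ccr2 ranked 25 at 5.57 and Cx3cr1 ranked 47 at 5.07. C5ar1 ranked 206 with 3.74, Ccr1 665 with 2.62 and Fpr2 679 with 2.60. Cxcr4 was at the other end, with a smaller range in 9.18% of genes.

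**Figure D2:**
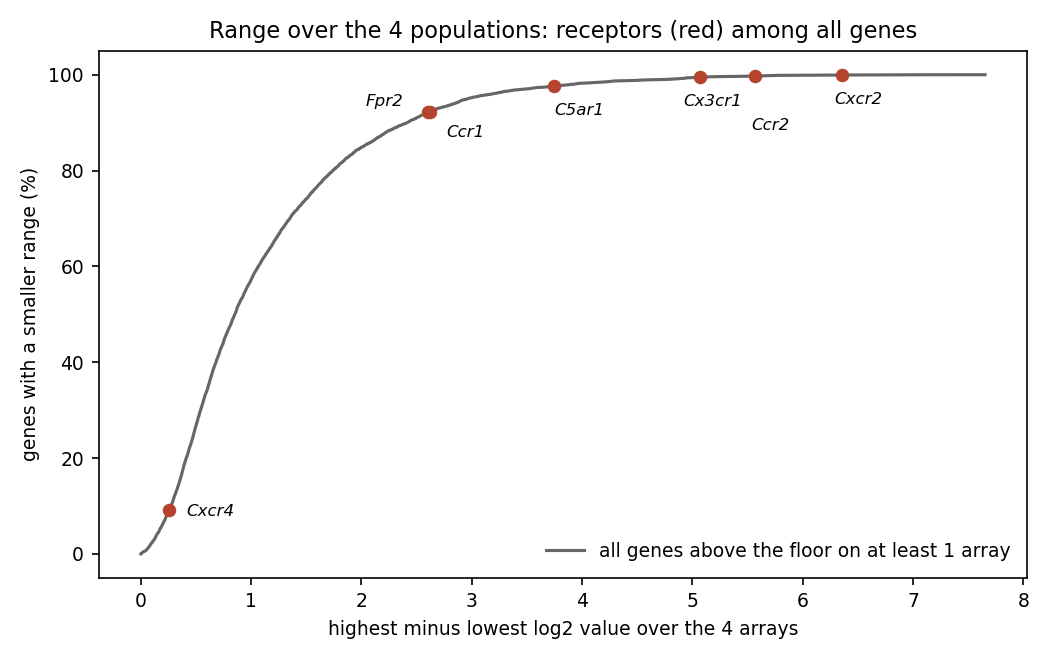
Share of genes with a smaller range (vertical axis, percent) against the range, the highest minus the lowest log2 value over the 4 arrays (horizontal axis), for 8621 genes (line) and the 7 measured receptors (red points). Cxcr2, Ccr2 and Cx3cr1 lie at the far right above 99% of genes, and Cxcr4 lies near the left end.

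In Gfi1-deficient against GFP-low monocytes, 1 of 7 receptors was at least 2-fold apart, Ccr1, which was higher. Of all 8010 measured genes, 1.91% were at least 2-fold apart in either direction, 0.637% higher and 1.27% lower. By a 4-fold rule 0 receptors were apart, with a background of 0.462% (0.175% higher and 0.287% lower). The median log2 difference of the receptors was 0.01, and that of all genes 0.03. Genotype, GFP gate and the sex of the animals, by Xist and Eif2s3y, cannot be told apart in the comparisons of Gfi1-deficient with GFP-low or GFP-high monocytes. In the comparison of Gfi1-deficient monocytes with granulocytes, genotype, sex and the Gr1 gate cannot be told apart.

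In Gfi1-deficient against GFP-high monocytes, 6 of 7 receptors were at least 2-fold apart, with a background of 17.3% of 8195 genes (9.53% higher and 7.81% lower). By a 4-fold rule 2 were higher and 1 lower, with a background of 5.36% (2.95% higher and 2.4% lower). Ccr2, Cx3cr1 and Ccr1 were higher, and Cxcr2, C5ar1 and Fpr2 were lower. Ccr2 ranked 3 from the highest of all genes. The differences of Cxcr2, C5ar1 and Fpr2 were -2.76, -1.65 and -1.24. The median of the receptors was 0.12 against -0.02 for all genes, which hides shifts in both directions.

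In Gfi1-deficient monocytes against granulocytes, 6 of 7 receptors were at least 2-fold apart, with a background of 31.5% of 8520 genes (20.3% higher and 11.2% lower). By a 4-fold rule 2 were higher and 3 lower, with a background of 9.82% (6.04% higher and 3.78% lower). Ccr2 and Cx3cr1 were higher, by 19.2-fold and 9.03-fold, and Ccr1, Cxcr2, C5ar1 and Fpr2 were lower. Cxcr2 ranked 6 from the lowest of all genes, and C5ar1 was 12.8-fold lower. The median was -1.38 for the receptors and 0.01 for all genes.

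Granulocytes differed from GFP-high monocytes by at least 2-fold in 4 of 7 receptors, with a background of 25.3% of 8457 genes (8.93% higher and 16.4% lower). By a 4-fold rule 3 were higher and 0 lower, with a background of 6.89% (2.46% higher and 4.43% lower). Cxcr2, Ccr1, C5ar1 and Ccr2 were all higher in granulocytes. No receptor was at least 2-fold lower in granulocytes. Cx3cr1 was 1.91-fold higher, under the rule, and quantile normalization of the arrays moved its log2 difference of 0.94 to 1.11. The median was 1.31 for the receptors and 0.03 for all genes.

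Granulocytes differed from GFP-low monocytes by at least 2-fold in 6 of 7 receptors, with a background of 28.2% of 8503 genes (10% higher and 18.2% lower). By a 4-fold rule 4 were higher and 2 lower, with a background of 7.79% (3.34% higher and 4.45% lower). Cxcr2, C5ar1, Fpr2 and Ccr1 were higher in granulocytes, and Ccr2 and Cx3cr1 were lower. Cxcr2 ranked 4 from the highest, while Ccr2 ranked 10 and Cx3cr1 ranked 17 from the lowest. The median was 2.56 for the receptors and 0.00 for all genes.

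GFP-high differed from GFP-low monocytes by at least 2-fold in 5 of 7 receptors, with a background of 18.6% of 8232 genes (9.03% higher and 9.61% lower). By a 4-fold rule 1 was higher and 2 lower, with a background of 5.9% (2.48% higher and 3.43% lower). Cxcr2, C5ar1 and Fpr2 were higher, and Ccr2 and Cx3cr1 were lower, ranking 3 and 10 from the lowest of all genes. Ccr1 and Cxcr4 were under the 2-fold rule. The median was -0.06 for the receptors and 0.03 for all genes. Each array enters 3 of the 6 comparisons, so their counts are not independent of each other.

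**Figure D3:**
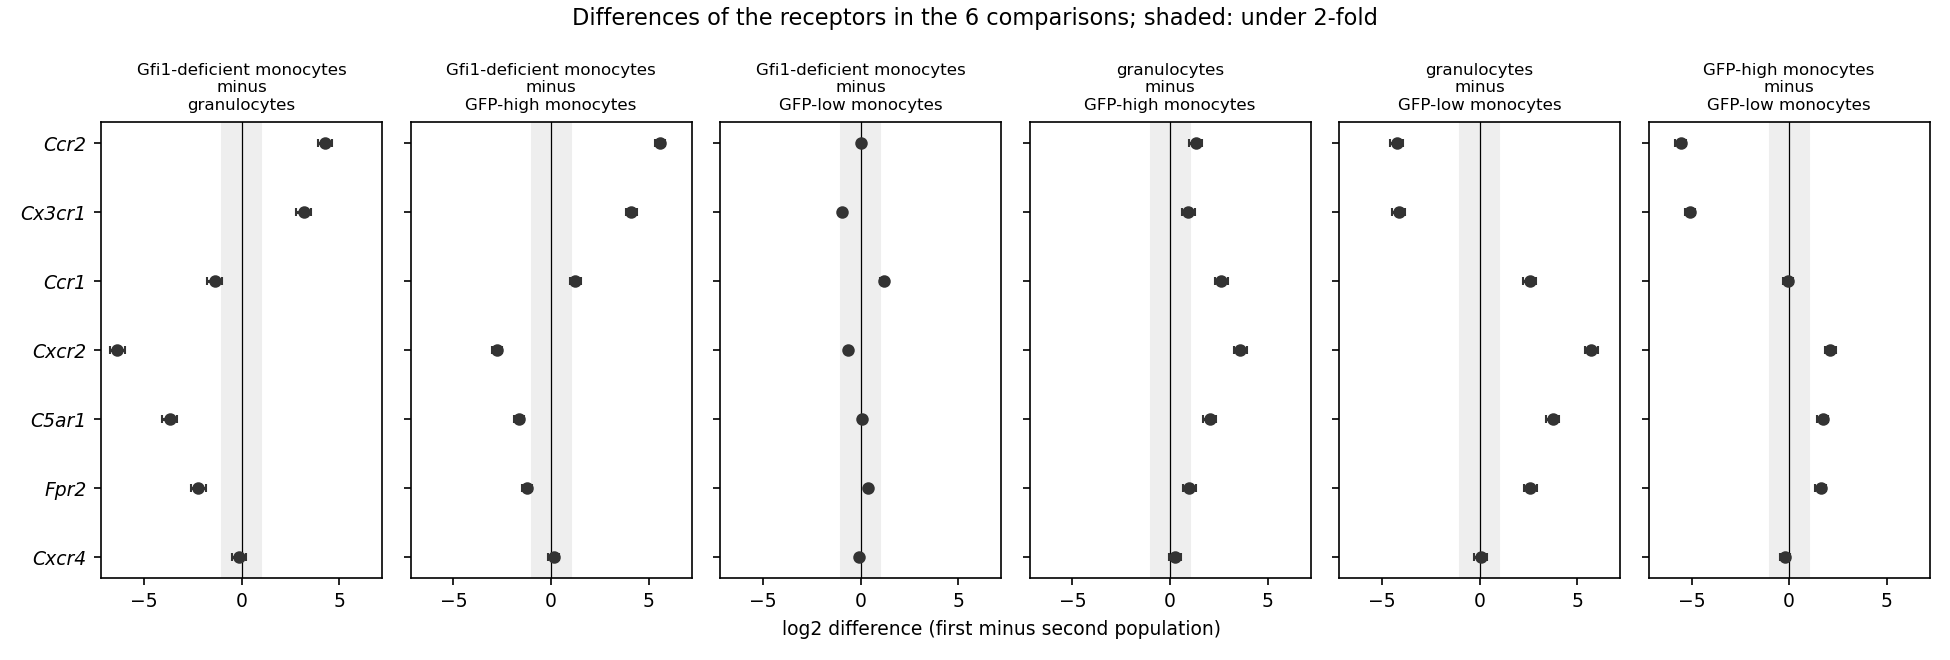
Log2 differences (horizontal axis, first-named minus second-named population) of 7 chemoattractant receptors (rows) in the 6 comparisons (panels); bars are 1 SD between probe sets in that comparison, not a spread between animals, and the shaded band marks differences under 2-fold. In Gfi1-deficient minus GFP-low monocytes only Ccr1 lies outside the band, and in the 4 panels that set Gfi1-deficient or GFP-low monocytes against granulocytes or GFP-high monocytes, Ccr2 lies on 1 side of 0 and Cxcr2 on the other.

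The profiles of the receptors were compared as log2 values centred on each gene's mean, by the root mean square distance over the 4 arrays. Ccr2 and Cx3cr1 were the closest pair at 0.54, followed by Fpr2 and C5ar1, also at 0.54. Ccr2 and Cxcr2 were the most distant pair at 4.65. Ccr1 was nearer to Fpr2 (0.90) than to its chromosomal neighbour Ccr2 (2.86).

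Among all genes above the floor, the profiles nearest to Ccr2 were those of Ms4a4c (distance 0.17), Ccl9 (0.22) and Ms4a6b (0.22). Nearest to Cx3cr1 were Ifi209 (0.15), Mndal (0.16) and Ly86 (0.25). Nearest to Cxcr2 were Scrg1 (0.23), Asprv1 (0.44) and Klra17 (0.50), and the nearest of them was farther away than the nearest of Ccr2 or Cx3cr1. Nearest to C5ar1 were Cd33 (0.09), Foxd4 (0.12) and Stfa3 (0.16). Foxd4 was below the floor on 2 arrays, and its distance without the floor was 0.51. Klra17 was below it on 2 arrays and Scrg1 and Asprv1 on 1 each, with distances of 0.23, 0.21 and 0.35 without the floor. Nearest to Fpr2 were Srpk2 (0.06), Dhrs7 (0.11) and Ripor2 (0.12). Nearest to Ccr1 were Tnfsf14 (0.22), Acta2 (0.28) and Mmp8 (0.30). Cxcr4, with its flat profile, was nearest to Atxn7l3b (0.01), Cntn2 (0.01) and Tnpo2 (0.02).

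Ccr1 and Ccr2 lie in a row of chemokine receptor genes on mouse chromosome 9, in the order Xcr1, Ccr1, Ccr1l1, Ccr3, Ccr2. Xcr1 and Ccr1l1 were below the floor on all 4 arrays. Ccr3, an eosinophil receptor, read 4.15 in Gfi1-deficient monocytes, 4.18 in granulocytes, 5.75 in GFP-high monocytes and 3.93 in GFP-low monocytes, above the floor in GFP-high monocytes alone. Ccr8, next to Cx3cr1 on the same chromosome, was below the floor throughout.

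The 250 bases upstream of the annotated start are shown for Ccr2 and Cx3cr1, which moved together, for Cxcr2, which ran opposite to them, and for Cxcr4, which was flat. The sequences are from RefSeq on GRCm38.p6, on the gene's strand from 5′ to 3′, and capitals mark AATC or its reverse complement GATT, the core of the Gfi1 binding site. They cover chr9:124101933-124102182 (plus strand) for Ccr2, chr9:120068297-120068546 (minus) for Cx3cr1, chr1:74153744-74153993 (plus) for Cxcr2 and chr1:128592300-128592549 (minus) for Cxcr4.
Ccr2: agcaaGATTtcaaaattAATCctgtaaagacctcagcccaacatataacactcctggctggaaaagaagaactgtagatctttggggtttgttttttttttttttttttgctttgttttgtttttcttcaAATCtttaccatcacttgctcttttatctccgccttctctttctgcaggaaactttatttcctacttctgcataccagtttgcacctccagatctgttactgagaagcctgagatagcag
Cx3cr1: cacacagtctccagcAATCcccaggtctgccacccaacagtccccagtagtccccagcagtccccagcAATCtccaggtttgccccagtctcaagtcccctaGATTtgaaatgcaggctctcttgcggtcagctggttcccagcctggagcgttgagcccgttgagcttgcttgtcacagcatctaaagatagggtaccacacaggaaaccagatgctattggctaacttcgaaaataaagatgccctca
Cxcr2: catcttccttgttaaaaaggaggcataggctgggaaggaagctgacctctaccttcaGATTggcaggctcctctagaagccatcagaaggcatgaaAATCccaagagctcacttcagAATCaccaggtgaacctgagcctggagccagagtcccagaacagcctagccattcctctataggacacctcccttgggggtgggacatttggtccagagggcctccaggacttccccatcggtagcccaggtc
Cxcr4: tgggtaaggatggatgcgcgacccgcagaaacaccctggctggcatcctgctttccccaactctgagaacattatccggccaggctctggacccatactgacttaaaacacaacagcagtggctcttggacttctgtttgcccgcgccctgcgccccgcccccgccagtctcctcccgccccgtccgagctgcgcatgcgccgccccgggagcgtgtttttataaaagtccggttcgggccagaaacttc
Ccr2, Cx3cr1 and Cxcr2 each had 3 matches in this window, and Cxcr4 had 0. The nearest match to the start began 120 bases upstream in Ccr2, 148 in Cx3cr1 and 133 in Cxcr2. Fpr1 had 4 matches, Ccr1 had 3, Fpr2 had 2 and C5ar1 had 1. These letters occur in 69.0% of all 32851 windows of the same length in the table, so a match describes the sequence and is not a binding site. Neither TTNNGCAA, a C/EBP-like motif (in 9.56% of windows), nor GAGGAAGT, a PU.1-like motif (2.44%), was found in the windows of the 8 genes, on either strand.

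Other chemoattractant receptors were taken from a list of 43, of which 34 were on the array and 20 passed the floor in 1 or more populations. In GFP-high against GFP-low monocytes, 4 of 14 measured were at least 2-fold higher and 3 lower (7 of 14 apart, against 18.6% of all genes), with a median of 0.17 against 0.03 for all genes. P2ry6, a receptor for UDP, read 9.18 in Gfi1-deficient monocytes, 5.61 in granulocytes, 4.74 in GFP-high monocytes and 9.47 in GFP-low monocytes, with the populations ordered high and low as for Ccr2. It was at least 19.6-fold lower in GFP-high than in GFP-low monocytes. Ffar2, a receptor for short-chain fatty acids, read 5.19 in Gfi1-deficient monocytes, 8.77 in granulocytes, 10.13 in GFP-high monocytes and 5.94 in GFP-low monocytes. Gpr84, a receptor for medium-chain fatty acids, read 5.54, 8.58, 9.42 and 5.79 on the same arrays. Ffar2 and Gpr84 were 18.3-fold and 12.4-fold higher in GFP-high than in GFP-low monocytes, and both peaked in GFP-high monocytes, not in granulocytes as Cxcr2 did. Ltb4r1, a leukotriene B4 receptor, and S1pr4, a sphingosine 1-phosphate receptor, were 2.71-fold and 2.91-fold higher in GFP-high monocytes, and Ccrl2, a receptor that binds chemerin, was 3.69-fold lower.

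In granulocytes against GFP-low monocytes, 5 of 18 measured receptors of that list were at least 2-fold higher and 2 lower (38.9% apart, against 28.2% of all genes), with a median of 0.35 against 0.00 for all genes. Hcar2, a receptor for nicotinic acid and ketone bodies, was 6.04-fold higher in granulocytes, at 9.71 against 7.12. It read 6.34 in GFP-high monocytes, so that, unlike Cxcr2, it was not higher there than in GFP-low monocytes. In Gfi1-deficient against GFP-low monocytes, 1 of 12 was at least 2-fold apart (8.33%, against 1.91% of all genes), with a median of -0.10. This was S1pr5, a sphingosine 1-phosphate receptor known in mice for the exit of natural killer cells and patrolling monocytes from bone marrow. S1pr5 read 4.62 in Gfi1-deficient monocytes, 3.98 in granulocytes, 3.65 in GFP-high monocytes and 6.55 in GFP-low monocytes. It was above the floor in GFP-low monocytes alone, and at least 2.60-fold lower in Gfi1-deficient monocytes. Of 4 measured natural killer cell markers, 0 were above the floor in Gfi1-deficient monocytes, 2 in granulocytes, 2 in GFP-high monocytes and 3 in GFP-low monocytes, with summed levels of 145, 175, 154 and 171. Klrd1 was above the floor in GFP-low monocytes alone, at 5.22, and Ncr1 was below it on all 4 arrays. The part of natural killer cells in the S1pr5 reading was not tested. With the floor at the 60th percentile S1pr5 was not measured and the count was 0.

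Genes that carry or end the receptor signal were taken from a list of 54, with 43 on the array and 41 above the floor on at least 1. In Gfi1-deficient against GFP-low monocytes 0 of 40 measured were at least 2-fold apart, against 1.91% of all genes, with a median of -0.06. In GFP-high against GFP-low monocytes 4 of 41 were higher and 6 lower (24.4% apart, against 18.6% of all genes, median 0.07). In granulocytes against GFP-low monocytes 9 were higher and 3 lower (median 0.50), and this 29.3% was close to the 28.2% of all genes. Arrb2, a beta-arrestin that takes receptors out of signalling, was 4.46-fold higher in GFP-high monocytes and 5.28-fold higher in granulocytes, each against GFP-low monocytes. Arrb1, the other beta-arrestin listed, stayed under the 2-fold rule, 1.55-fold lower and 1.20-fold higher in these comparisons. Grk5, a kinase that phosphorylates active receptors, read 9.76 in Gfi1-deficient monocytes, 8.34 in granulocytes, 5.28 in GFP-high monocytes and 9.41 in GFP-low monocytes, and was 17.5-fold lower in GFP-high than in GFP-low monocytes. Of the RGS proteins, which shorten G protein signals, Rgs10 was 9.39-fold lower in GFP-high monocytes and 15.6-fold lower in granulocytes, each against GFP-low monocytes. Rgs1 was 3.83-fold and 3.04-fold lower in the same comparisons, while Rgs18 was 2.04-fold and 2.97-fold higher. Rgs2 was 2.42-fold lower in GFP-high monocytes and 1.03-fold higher in granulocytes. The genes named here were not in each case the largest of the list. Against GFP-low monocytes, Gng2 was 2.87-fold lower and Gng12 was 2.68-fold higher in GFP-high monocytes. Rac2, a GTPase of neutrophil movement, was 2.70-fold higher in granulocytes than in GFP-low monocytes. Gnai2, the main Gi subunit of leukocytes, differed by 0.05 between GFP-high and GFP-low monocytes.

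**Figure D4:**
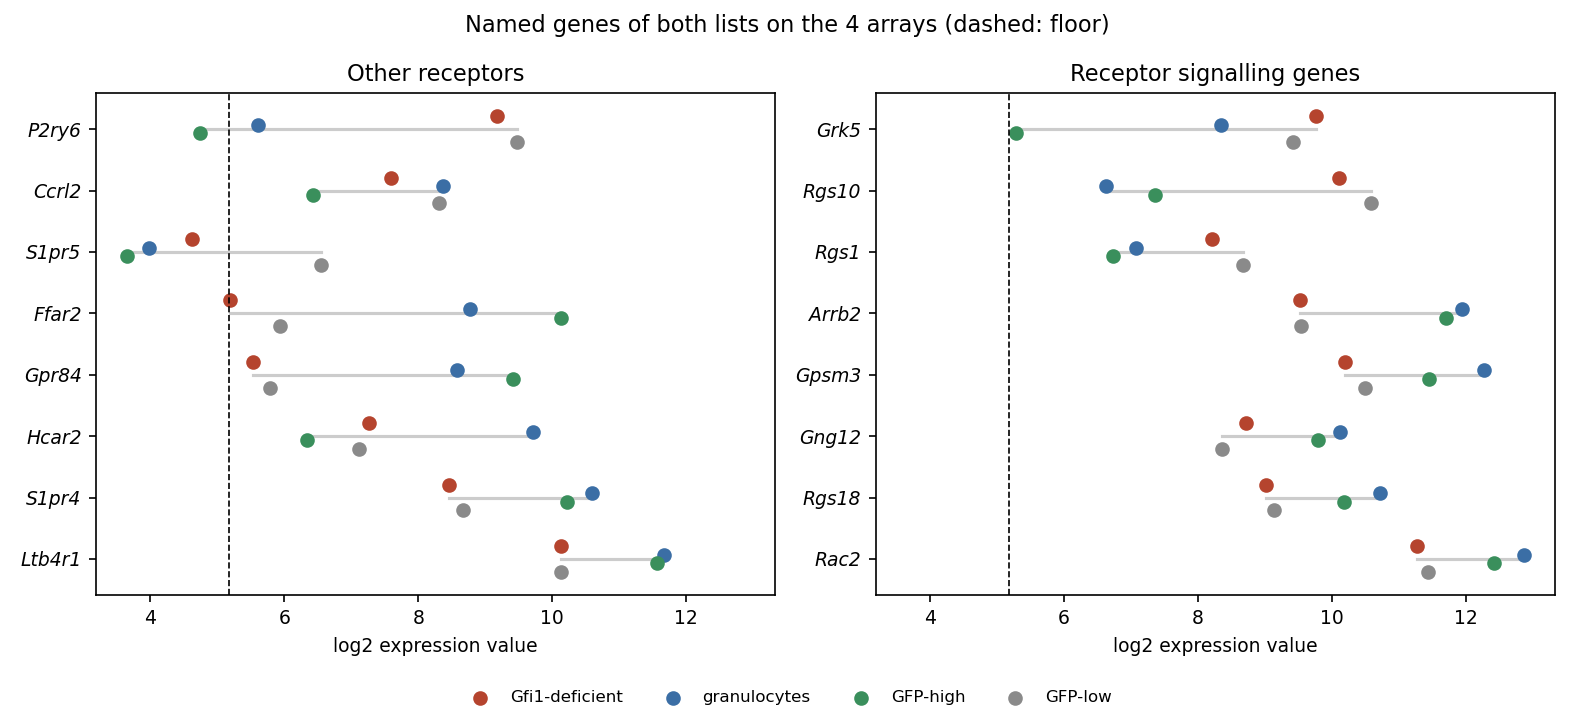
Log2 expression values (horizontal axis) of 8 other chemoattractant receptors (left) and 8 receptor signalling genes (right) on the 4 arrays, with colours for the populations and the floor as a dashed line. Gfi1-deficient and GFP-low monocytes lie close together for most of these genes, with S1pr5 the gene that differs by at least 2-fold between them.

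Ligands of the measured receptors were taken from a list of 25, with 23 on the array and 16 above the floor in 1 or more populations. The list also held C3, which is not a ligand of these receptors and was not on the array. In Gfi1-deficient against GFP-low monocytes 1 of 15 was at least 2-fold higher, Saa3 by 6.87-fold, and 1 was lower, Camp by 32.9-fold (13.3% apart, against 1.91% of all genes, median -0.04). Serum amyloid A proteins and the cathelicidin peptide are known as ligands of formyl peptide receptors. In GFP-high against GFP-low monocytes 2 of 15 were higher and 5 lower (46.7% apart, against 18.6% of all genes, median -0.50), the lower ones including Ccl9, Ccl3 and Ccl6, which bind Ccr1, at 34.9-fold, 18.7-fold and 5.49-fold, and Ccl2, which binds Ccr2, at 6.67-fold. Ccr1 itself did not differ beyond the SD between probe sets in that comparison. In granulocytes against GFP-low monocytes 3 of 16 were higher and 5 lower (8 of 16 apart, against 28.2% of all genes, median 0.13). The lower ones included Ccl9 at 14.2-fold, Ccl2 at no less than 7.07-fold and Ccl3 at 5.07-fold, although granulocytes had the highest Ccr1. Cxcl2, a ligand of Cxcr2, was 11.5-fold higher in granulocytes, which were also the population with the highest Cxcr2. Cxcl12, the ligand of Cxcr4, read 5.31 in Gfi1-deficient monocytes, 6.22 in granulocytes, 4.99 in GFP-high monocytes and 5.68 in GFP-low monocytes, near the floor on most arrays and below it in GFP-high monocytes.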

How the data were processed

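The authors deposited 1 log2 expression value for each of 22690 probe sets on 4 Affymetrix arrays. That they are log2 was read from their range (2.70 to 14.50), and how they were background-corrected and normalized is not given in the sources used here. A normalization to a common distribution would hide a shift of most genes in 1 direction. Per the labels' protocols, RNA was extracted with TRIzol and biotin-labelled.

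Values were used unscaled (Python 3.11.15, pandas 2.3.3, numpy 2.4.6). The platform annotation gave 1 gene to 20393 probe sets, several to 691 and none to 1606. Symbols were checked by gene identifier against GRCm38.p6, with 0 updated, and 64 control probe sets were left out. Values below the floor were set to it, a fold with 1 array at the floor is a bound ("at least"), and none is given with both there. The number of arrays limits the precision, and no test or p-value is given. The SD between probe sets used the 2 highest probe sets of a gene, above the floor on all arrays, as the SD of the difference between their log2 differences divided by the square root of 2. The calculation was tested on simulated data. Named were all receptors, up to 8 genes of each list at least 2-fold apart from GFP-low monocytes, the largest ligand differences, and the 3 nearest profiles. Cxcl12, Gnai2, Arrb1 and neighbouring genes were added after their values were seen. Receptors and lists were chosen with earlier results of these data known. Alternatives were the floor, the scaling, the probe set rule and the size of fold.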

Additional observations from a re-analysis of the deposited data

How the results depend on the processing

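With 1 array in each population, no array could be left out without losing its population. No paired analysis was possible because each group has 1 array. Over 5 alternatives (floor at the 20th or 60th percentile, quantile normalization, median centring, and the mean of a gene's probe sets), 193 of 207 differences of the receptors moved by less than the SD between probe sets, and 14 moved more. With the floor at the 60th percentile, Cxcr2 and C5ar1 in Gfi1-deficient minus GFP-low monocytes were not measured, nor Cx3cr1 in granulocytes minus GFP-high monocytes. The sign changed in 2 differences that were near 0: Ccr2 in Gfi1-deficient minus GFP-low monocytes was -0.01 under quantile normalization, and Ccr1 in GFP-high minus GFP-low monocytes was 0.02 with the mean of probe sets. The count of receptors at least 2-fold apart stayed within 1.5 times under each of these 5. Counts of other receptors, signalling genes and ligands were rerun too, those of ligands by a choice made after seeing the data, and moved in 2 cases: with the floor at the 20th percentile 5 other receptors were apart between granulocytes and GFP-high monocytes (3 as reported), and with the floor at the 60th percentile 0 were apart between Gfi1-deficient and GFP-low monocytes (1 as reported). For both, the floor sets which dim genes are measured.

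A size of 4-fold or 1.5-fold changes counts by construction. The share of all genes at 4-fold was 9.82% in Gfi1-deficient monocytes minus granulocytes, 5.36% in Gfi1-deficient minus GFP-high and 0.462% in Gfi1-deficient minus GFP-low monocytes. It was 6.89% in granulocytes minus GFP-high, 7.79% in granulocytes minus GFP-low and 5.9% in GFP-high minus GFP-low monocytes. At 4-fold, 3 of 7 receptors were apart in Gfi1-deficient minus GFP-high, 0 of 7 in Gfi1-deficient minus GFP-low and 3 of 7 in GFP-high minus GFP-low monocytes. Other receptors at 4-fold were 3 of 13, 0 of 12 and 3 of 14 in these 3 comparisons. They were 1 of 19 in granulocytes minus GFP-high and 4 of 18 in granulocytes minus GFP-low monocytes. Signalling genes at 4-fold were 3 of 41 in Gfi1-deficient monocytes minus granulocytes and 3 of 40 in Gfi1-deficient minus GFP-high monocytes. They were 2 of 41 in granulocytes minus GFP-high, 2 of 41 in granulocytes minus GFP-low and 3 of 41 in GFP-high minus GFP-low monocytes. Each of these lay near the share of all genes. Ligands at 4-fold were 4 of 16 in granulocytes minus GFP-high, 5 of 16 in granulocytes minus GFP-low and 4 of 15 in GFP-high minus GFP-low monocytes. At 1.5-fold, 3 of 7 receptors (Ccr1, Cx3cr1 and Cxcr2), 3 of 12 other receptors and 7 of 15 ligands were apart in Gfi1-deficient minus GFP-low monocytes. The share of all genes there was 6.43%. In granulocytes minus GFP-high monocytes 7 of 19 other receptors were apart, under the 42.9% of all genes. Signalling genes at 1.5-fold were 24 in Gfi1-deficient monocytes minus granulocytes, 1 in Gfi1-deficient minus GFP-low, 13 in granulocytes minus GFP-high, 23 in granulocytes minus GFP-low and 21 in GFP-high minus GFP-low monocytes. At 1.5-fold the share of all genes was 52.4%, 6.43%, 42.9%, 48.0% and 33.8% in these comparisons, so 24 and 23 of 41 signalling genes lay near it. Signal over background limits the low readings of Cx3cr1 in GFP-high monocytes. With the floor at the 60th percentile, their log2 difference from GFP-low monocytes was a bound, -3.97 or lower, in place of -5.07.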
